A study of Homo sapiens with 2 samples.

Results

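Serpins are a family of proteins that share one fold. Most of them block serine or cysteine proteases: the protease cuts an exposed loop of the serpin, the serpin changes shape, and the protease is left trapped in a covalent complex. The letter in a SERPIN symbol is the clade, and the number is the member. Clades A, C, D and F and SERPING1 are mostly plasma proteins made by the liver, clade B acts mostly inside cells, clade E acts mostly outside cells, SERPINH1 is a collagen chaperone that blocks no protease, and clade I is best known from nervous tissue and pancreas.

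The serpin genes were taken by symbol, as genes of the table named SERPIN with 1 clade letter from A to I and a number, with 7 pseudogene names left out (all under 1 RPKM, the highest being SERPINE4P with 0.637 in WT and 0 in MYOCD). The values of 34 such genes, of 56255 symbols in the table, are given here. The values came from 2 RNA-seq libraries of A549, an established human lung adenocarcinoma cell line with epithelial traits. The WT library was from untreated wild-type A549 cells and the MYOCD library from A549 cells overexpressing MYOCD, the gene of myocardin, which drives muscle genes by binding the transcription factor SRF and activating its targets. The labels name no vector control, no vector or promoter for MYOCD and no time of expression, and give 1 library a group. No value therefore has a replicate error, and no p-value was computed.

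Levels are in RPKM, reads scaled to the length of the gene model and to the size of the library. The gene lengths used are not stated, so levels of different genes can be set side by side only roughly. The log2 change is that of MYOCD RPKM over WT RPKM after 0.5 was added to both, which makes the changes of weakly expressed genes look smaller than they are. A gene was counted at 1 RPKM or more in at least 1 library and called higher or lower at or beyond 2-fold, a limit on size with no test behind it. The libraries followed their labels for MYOCD itself, with 0.304 RPKM in the WT library against 48.6 in the MYOCD library. The deposited values summed to 886700 RPKM in WT against 880876 in MYOCD, and the sequencing depth behind them is unknown. Of 6 epithelial markers, KRT8 (1523 and 1059 RPKM), KRT18 (1647 and 1134), KRT7 (996.5 and 1386), KRT19 and CDH1 were above 1 RPKM in both libraries. The remaining one, EPCAM, was called higher, at 0.889 RPKM in WT against 2.57 in MYOCD. Markers of other cell types differed in level. Those of neuron and liver, given beside SERPINI1 and the plasma serpins, were partly well above 1 RPKM. Of 8 blood cell markers, CD68 (18.3 and 25.1 RPKM) and CD14 (2.31 and 1.17) were counted, and PTPRC, CD3E and HBA1 were at 0 in both. The 6 endothelial markers summed to 0.297 RPKM in WT against 0.226 in MYOCD, with VWF, KDR, CDH5 and TEK at 0 in both. Of 6 platelet and megakaryocyte markers, summing to 5.25 and 4.66 RPKM, GP1BA (2.92 and 2.94) and ITGA2B (2.33 and 1.38) were counted. PF4 and GP9 were at 0 in both. Of 8 fibroblast markers, summing to 5.70 and 15.8 RPKM, DCN and FAP were at 0 in both, and COL1A1 (3.05 and 14.3 RPKM) made up most of the sum. THY1 (1.91 and 0.959 RPKM) was counted as well and had the lower value in MYOCD.

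Most of these serpin genes were at or near 0 in A549. Of the 34 genes, 11 were at 0 RPKM in both libraries, 14 were above 0 but under 1 RPKM in both, and 9 were counted. Among those 9, SERPINB7 was higher in MYOCD by 2-fold, with 0.597 RPKM in WT against 1.88 in MYOCD, and SERPINI1 was lower by 2-fold, with 1.89 and 0.618. In a bulk sample like these, a change in the number of cells that express a gene and a change in RNA per cell cannot be told apart. The other 7 lay under 2-fold. Over all 17350 genes counted, 11.8% were called, 5.42% higher and 6.35% lower, and over the 12337 protein-coding genes among them 6.11% were called. The 2 calls among these 9 serpin genes are too few to be read against these shares.

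The low-level part of the table also holds more calls than the rest. Among protein-coding genes with 1 to 5 RPKM in the higher library, where SERPINB7 and SERPINI1 both lie, 13% were called, against 4.26% of those with at least 5 RPKM. Of the 6 among these 9 serpin genes with at least 5 RPKM in a library, 0 were at or beyond 2-fold. Of the 9, 6 had a log2 change above 0 and 3 below, with a median of 0.17 and a range from -1.10 to 1.11. Over all genes counted 49.8% were above 0 and the median was -0.00. A log2 change within 0.5 of 0 was found for 6 of the 9 serpin genes and for 77.8% of protein-coding genes.

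**Figure D1:**
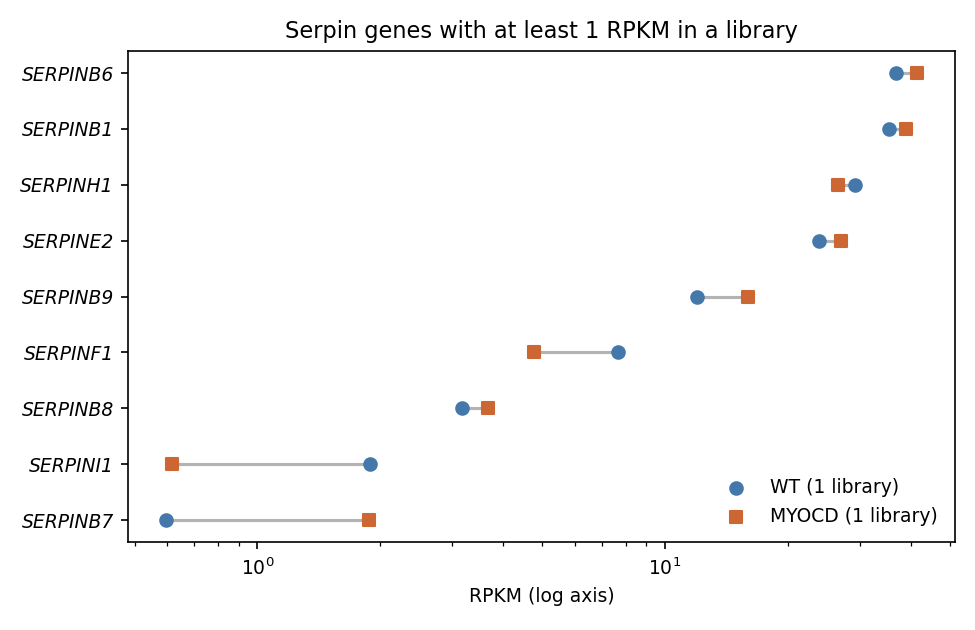
RPKM (log axis) of 9 serpin genes with at least 1 RPKM in a library; circles are WT, squares are MYOCD, 1 library each, and the grey line joins the values of a gene. SERPINB6, SERPINB1, SERPINH1 and SERPINE2 lie between 23.8 and 41.5 RPKM, and the widest gaps on this axis are those of SERPINI1 and SERPINB7 at the low end.

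Promoter sequences are shown for SERPINB7 and SERPINI1, called at 2-fold, and for SERPINB8, a gene of the same cluster as SERPINB7 that lay under 2-fold. Each is the run of 100 bases just before a transcription start in RefSeq (GRCh38.p14), read 5′ to 3′ on the strand of the gene. Capitals mark the AP-1 site, searched as TGACTCA on both strands, which is the sequence bound by FOS and JUN proteins. SERPINB7 has 3 starts in the table, with the stretches shown at chr18:63752957-63753056, chr18:63775318-63775417 and chr18:63777681-63777780 on the plus strand, in this order below. SERPINI1 is at chr3:167735621-167735720 and SERPINB8 at chr18:63969981-63970080, both on the plus strand.
SERPINB7, the upstream start: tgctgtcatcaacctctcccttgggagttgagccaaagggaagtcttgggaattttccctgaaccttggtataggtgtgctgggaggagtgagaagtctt
SERPINB7, the middle start: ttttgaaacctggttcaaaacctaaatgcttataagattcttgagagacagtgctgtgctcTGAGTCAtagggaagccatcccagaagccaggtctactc
SERPINB7, the downstream start: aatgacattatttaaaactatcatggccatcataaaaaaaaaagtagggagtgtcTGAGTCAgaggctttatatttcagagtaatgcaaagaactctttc
SERPINI1: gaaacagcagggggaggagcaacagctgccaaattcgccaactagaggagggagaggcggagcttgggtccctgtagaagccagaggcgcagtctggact
SERPINB8: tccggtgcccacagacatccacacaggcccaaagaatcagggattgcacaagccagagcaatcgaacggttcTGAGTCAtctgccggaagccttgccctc

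The RefSeq promoter table, which gives 250 bases before and 50 after each start, held 41 promoters of 27 serpin genes. An AP-1 site was in 4 of the 41, those of SERPINB7 (the middle and downstream starts, beginning 39 and 45 bases before them), SERPINB8 (28 bases before its start) and SERPINB13 (87 bases before). All 3 genes lie in the chromosome 18 cluster, and their RPKM values went different ways: SERPINB7 was called higher, SERPINB8 lay under 2-fold and SERPINB13 stood at 0.0240 and 0. The same letters were in 4.95% of the 35116 promoters of this length. The CArG box, the motif that SRF binds, was searched only in its strict form CCWWWWWWGG, where W is A or T. It was in 0 of the 41 serpin promoters and in 1.29% of all promoters. At so low a share, 0 of 41 does not set the serpin promoters apart. Which start the cells used cannot be read from values per gene.

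The 34 genes summed to 153 RPKM in WT against 164 in MYOCD, a ratio of 1.07. SERPINB6, SERPINB1, SERPINH1 and SERPINE2 made up most of both sums, and each of them lay close to its WT value.

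SERPINE2 encodes protease nexin 1, an extracellular inhibitor of thrombin, urokinase and plasmin. It read 23.8 RPKM in WT against 27.04 in MYOCD, a log2 change of 0.18. SERPINE3, of the same clade, stood at 0.0471 and 0.283 RPKM and was not counted. Of its exons, 30.3% overlap those of INTS6 on the opposite strand, and no source used here says whether the counting used strand.

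SERPINF1 encodes pigment epithelium-derived factor, a secreted serpin that blocks no protease and is known for restraining vessel growth. It read 7.67 RPKM in WT against 4.78 in MYOCD, a log2 change of -0.63, under 2-fold and, of the 9 genes, the lowest change after that of SERPINI1. Its neighbour on chromosome 17, SERPINF2, encodes alpha2-antiplasmin, the plasma inhibitor of plasmin, and stood at 0.731 and 0.347 RPKM, below the level needed to be counted. Both genes of this clade had the lower value in MYOCD.

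**Figure D2:**
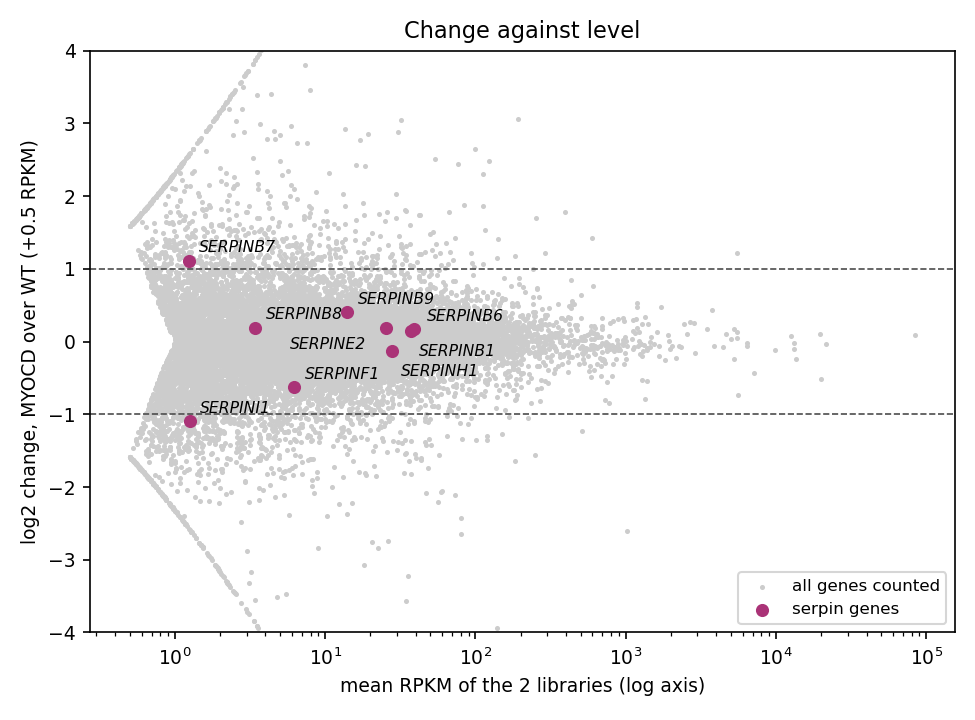
Log2 change of MYOCD over WT with 0.5 RPKM added (vertical axis) against the mean RPKM of the libraries (log axis) for all 17350 genes counted (grey) and 9 serpin genes (purple, named); dashed lines mark 2-fold and 351 grey genes lie outside the drawn range. SERPINB7 and SERPINI1 cross the lines at the left, where the grey cloud is widest, and the other 7 named genes lie between the lines.

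The intracellular clade B had 13 genes, of which 5 were counted, 3 were low and 5 were at 0 in both libraries. These genes sit in a pair of clusters that behaved differently in A549. The chromosome 6 cluster, which spans 139.8 kb from 2832332 to 2972165, holds SERPINB1, SERPINB9 and SERPINB6, and all 3 were counted. SERPINB6, an inhibitor of cathepsin G and other proteases, read 36.9 RPKM in WT against 41.5 in MYOCD. SERPINB1, which protects cells from neutrophil elastase and related granule proteases, stood at 35.3 and 38.98 RPKM.

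SERPINB9 encodes the inhibitor of granzyme B, the protease by which cytotoxic lymphocytes kill target cells. It read 11.97 RPKM in WT against 15.97 in MYOCD, a log2 change of 0.40, above those of its neighbours SERPINB1 (0.14) and SERPINB6 (0.17). All 3 genes of the cluster had the higher value in MYOCD, and none reached 2-fold. Their sum was 84.2 RPKM in WT against 96.5 in MYOCD.

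The chromosome 18 cluster spans 543 kb from 63476761 to 64019779 and holds 10 clade B genes, of which SERPINB7 and SERPINB8 were counted. SERPINB7, also called megsin and known from kidney mesangial cells and skin, read 0.597 RPKM in WT against 1.88 in MYOCD. The ratio of these values was 3.14 and the log2 change with 0.5 RPKM added was 1.11. With 1 RPKM added it was 0.85, under 2-fold. Its gene lies from 63752935 to 63805376 on the plus strand, and no other GENCODE gene shares its exons.

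SERPINB8, an inhibitor of furin and other proteases, read 3.17 RPKM in WT against 3.69 in MYOCD, a log2 change of 0.19. Of its exon length, 6.31% is shared with HMSD on the same strand. SERPINB2 (an inhibitor of urokinase), SERPINB5 (maspin), SERPINB10, SERPINB11 and SERPINB12 were listed at 0 in both libraries. The sum of the cluster was 3.86 RPKM in WT against 5.65 in MYOCD, nearly all of it from SERPINB7 and SERPINB8. Markers of squamous keratinocytes, a cell type that expresses many genes of this cluster, were low apart from KRT10 (76.8 and 62.8 RPKM): KRT5 stood at 0.234 and 0.582 RPKM, and KRT1, KRT13, KRT14, LOR and SPRR1B were at 0 in both.

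SERPINB3 and SERPINB4, the squamous cell carcinoma antigens, inhibit cathepsins and are near-identical copies. SERPINB3 read 0 RPKM in WT against 0.0433 in MYOCD and SERPINB4 at 0.0681 and 0.0386. Their open reading frames were 95.2% identical over 1170 aligned bases, the highest identity of the 126 pairs compared within a clade, whose median was 61.7%. Their RefSeq promoters matched at 296 of 300 bases. No source used here says how reads common to both were assigned, so their separate values are uncertain. The stretches of 100 bases before their starts are shown because they display how alike the copies are, with the bases that differ in capitals. They lie at chr18:63661894-63661993 for SERPINB3 and chr18:63644257-63644356 for SERPINB4, both on the minus strand of GRCh38.p14.
SERPINB3: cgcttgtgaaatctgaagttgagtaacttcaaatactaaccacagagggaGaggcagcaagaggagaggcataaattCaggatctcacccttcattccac
SERPINB4: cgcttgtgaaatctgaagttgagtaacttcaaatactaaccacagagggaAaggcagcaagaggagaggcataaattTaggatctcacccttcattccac

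SERPINI1 encodes neuroserpin, an inhibitor of tissue plasminogen activator best known from neurons. It read 1.89 RPKM in WT against 0.618 in MYOCD, a ratio of 0.327 and a log2 change of -1.10, or -0.84 with 1 RPKM added. The gene spans bases 167735243 to 167825568 of chromosome 3, plus strand, and shares no exons with another GENCODE gene. SERPINI2, the pancreas-type serpin on the same chromosome, was listed at 0 in both. Of 7 neuron markers, 6 were counted. RBFOX3 (14.2 and 3.49 RPKM) and MAP2 (2.78 and 0.978) were lower by 2-fold, where 6.35% of all genes were lower. MAP2 passed the level limit through WT alone, where it was high. SNAP25 stood at 8.87 and 17.03 RPKM and STMN2 at 0 in both. The marker sum was 109.8 RPKM in WT against 124.5 in MYOCD, most of it from TUBB3 (76.4 and 96.4 RPKM). Without TUBB3 the other 6 summed to 33.3 and 28.1 RPKM. The part of these markers in the SERPINI1 difference was not tested.

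SERPINH1 encodes HSP47, the chaperone of the endoplasmic reticulum that binds the collagen triple helix. It read 29.2 RPKM in WT against 26.6 in MYOCD, a log2 change of -0.13. With steady reference genes set to 0 it was -0.05. Of the genes that work beside it in folding and exporting collagen, 26 were counted and 25 of them lay under 2-fold. P4HA3, a prolyl 4-hydroxylase subunit, was the 1 member called (3.09 and 11.4 RPKM), where 6.11% of protein-coding genes were called. A log2 change above 0 was found for 20 of the 26, with a median of 0.19, against 49.8% and -0.00 over all genes. The most abundant were P4HB (548.9 and 592 RPKM), the partner subunit of the prolyl 4-hydroxylases, PPIB (245 and 301), a prolyl isomerase, and KDELR1 (238 and 274), a receptor that returns proteins to the endoplasmic reticulum.

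Apart from SERPINF1, the plasma serpins of the liver type were low. Clade A had 11 genes and 0 were counted, with 5 at 0 in both libraries and a sum of 1.25 RPKM in WT against 1.74 in MYOCD. All but SERPINA7, which is on chromosome X, lie within 344 kb on chromosome 14. SERPINA1 encodes alpha1-antitrypsin, the inhibitor of neutrophil elastase that protects the lung. It read 0.177 RPKM in WT against 0.970 in MYOCD, a ratio of 5.47 and a log2 change of 1.12, just under the level needed to be counted. SERPINA1 thus missed the limit on level by a small margin, and SERPINB7 and SERPINI1 passed it through 1 library each.

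The other low genes of clades A, C and D and SERPING1 went both ways. SERPINA6, which encodes the cortisol-binding globulin, read 0.407 RPKM in WT against 0.158 in MYOCD. SERPING1, the C1 inhibitor of complement, stood at 0.175 RPKM and 0, and SERPIND1, heparin cofactor II, at 0.139 and 0.199. SERPINC1, the gene of antithrombin, stood at 0 and 0.0377 RPKM, SERPINA5 (protein C inhibitor) at 0.0338 and 0.0668, SERPINA10 (protein Z-dependent inhibitor) at 0.0494 and 0.0296, and SERPINA9 at 0.0391 and 0. Among all 14 low genes of the family 6 had the higher value in MYOCD and 8 the lower. Genes listed at 0 in both were SERPINA2, SERPINA4 (kallistatin), SERPINA7 (thyroxine-binding globulin), SERPINA11 and SERPINA12 (vaspin). Angiotensinogen (AGT), a serpin by fold whose symbol keeps it out of the set, read 0.0669 and 0.0518 RPKM.

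SERPINA3, which encodes alpha1-antichymotrypsin, has 2 rows in the table. The row used by the highest mean read 0.539 RPKM in WT against 0.511 in MYOCD, and belongs to a GENCODE gene named AL049839.2. The row of the gene that GENCODE names SERPINA3 stood at 0.000805 and 0.00480 RPKM. The exons of these models overlap on the same strand over 1592 bases, or 51.9% of the exon length of AL049839.2, so the values of both rows are uncertain. Liver markers outside the family summed to 58.2 RPKM in WT against 27.1 in MYOCD, with 7 of 16 counted. Of those 7, 0 had a log2 change above 0 and 3 were lower by 2-fold, against 6.35% lower over all genes. The 3 were FGA (20.8 and 4.03 RPKM), APOH (4.10 and 1.77) and RBP4 (1.83 and 0.643). ALB, AMBP and RBP4 passed the level limit through WT alone. Among those not counted, only TF (0.387 and 0.514 RPKM) and APOB (0.0663 and 0.0784) had the higher value in MYOCD. Most of the liver marker sum came from FGA, FGB and FGG, with ALB at 1.46 and 0.779 RPKM and TTR and APOC3 at 0 in both.

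**Figure D3:**
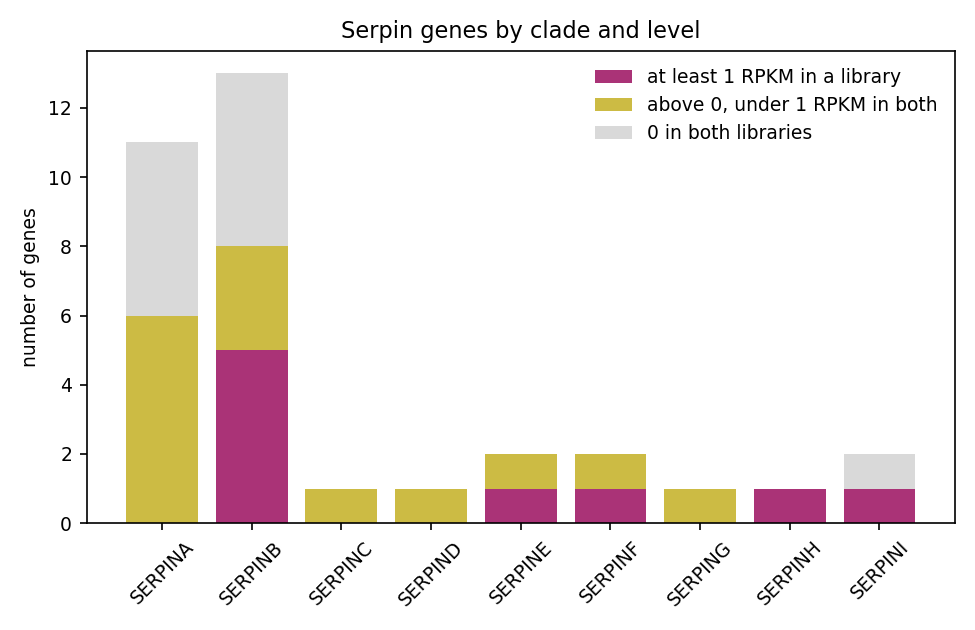
Number of the 34 serpin genes in each clade, stacked by level: counted (at least 1 RPKM in a library), above 0 but under 1 RPKM in both, and 0 in both libraries. Clade B holds 5 of these 9 counted genes, and clade A, with 11 genes, holds 0.

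A list of proteases taken here as inhibited or bound by serpins, with no source for each member, had 58 genes in the table. Of these, 22 were counted, 1 was called higher and 0 lower, against 5.42% higher and 6.35% lower over all genes. Their median log2 change was 0.05. With 0.1 RPKM added, CTSS (15.02 and 7.35 RPKM) and PROC (1.02 and 0.270) were called lower as well. The one called with 0.5 RPKM added was PCSK5, a proprotein convertase (1.86 and 10.01 RPKM). The most abundant were the serine protease gene PRSS23 (193 and 214 RPKM) and the cathepsin genes CTSL (148 and 145) and CTSB (123 and 147). Urokinase (PLAU), a target of SERPINE2, and tissue plasminogen activator (PLAT), the target of SERPINI1, were picked out after their values were seen. PLAU read 59.1 RPKM in WT against 61.3 in MYOCD, a log2 change of 0.05, and PLAT read 1.08 and 1.18, a log2 change of 0.09.

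Cofactors, receptors and clearance genes of the serpins had 32 of 37 members counted. Of the 32, 0 were higher and 1 was lower by 2-fold, against 5.42% higher and 6.35% lower over all genes. With 0.1 RPKM added, 4 in all were at or beyond 2-fold. The median was -0.05, or 0.039 with steady reference genes set to 0. The lower one was VTN (7.89 and 1.99 RPKM), the gene of vitronectin, an adhesion protein of plasma and matrix. The most abundant were RPSA (625 and 585 RPKM), the laminin receptor and ribosomal protein, the glypican gene GPC1 (97.4 and 79.4) and MCFD2 (69.0 and 99.2), a cargo receptor subunit for secreted glycoproteins. The urokinase receptor gene PLAUR, also picked out after its values were seen, stood at 20.1 and 19.2 RPKM.

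The list of other protease inhibitors, which also holds AGT, has no source for each member and had 17 of 45 members counted. Of the 17, 5 were lower by 2-fold and 0 higher, against 6.35% and 5.42% over all genes. Of the 5, ITIH4 and CSTA passed the level limit through WT alone, where they were high. The median of the 17 was -0.11. With at least 5 RPKM required in a library, 3 were at or beyond 2-fold, and with steady reference genes set to 0, 4 were. The lower ones were TFPI (76.1 and 17.6 RPKM), ITIH4 (1.82 and 0.307), the cystatin gene CSTA (1.47 and 0.254), SLPI (8.30 and 3.47), the leukocyte protease inhibitor of airway mucus, and APLP1 (100.9 and 49.3). APLP1, an amyloid precursor relative, lay close to the limit at a log2 change of -1.03. Whether its product blocks a protease was not checked. The most abundant were TFPI2 (288 and 229 RPKM), SPINT2 (277 and 292) and APP (121 and 112).

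**Figure D4:**
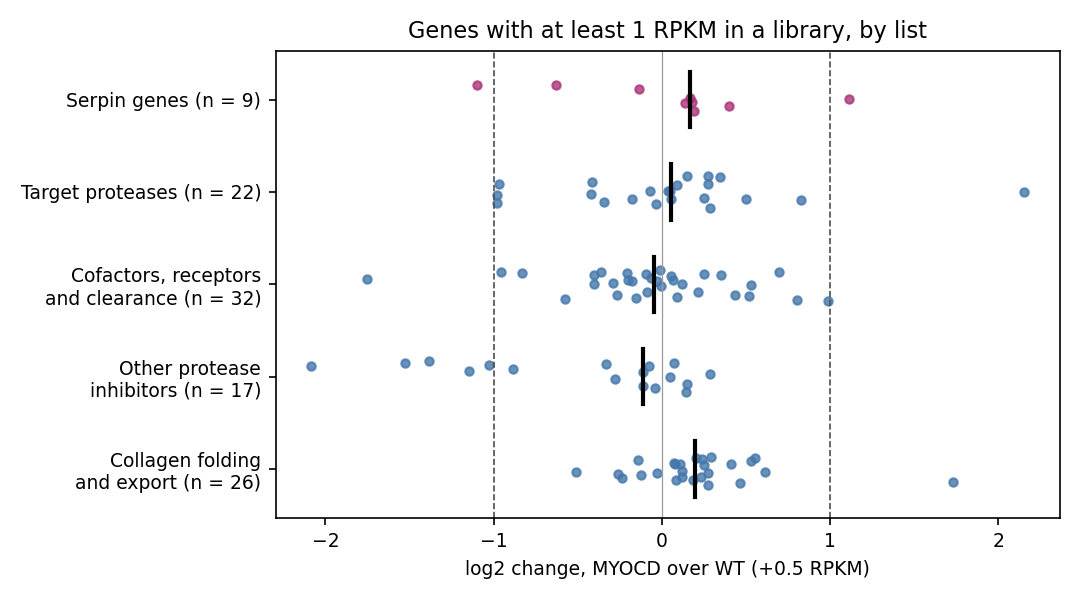
Log2 change of MYOCD over WT with 0.5 RPKM added, for the counted genes of the serpin family and 4 related lists; each point is a gene, black bars are medians and dashed lines mark 2-fold. The 9 serpin genes gather around 0 with a gene beyond each line. The list of other inhibitors has 5 genes left of the left line, and the collagen folding genes lie mostly right of 0.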

How the data were processed

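The authors deposited 1 table of 57979 gene rows with RPKM values for 2 libraries, WT and MYOCD, per the file headers. The submitters' processing notes name Bowtie 0.12.2, the human build GRCh38.p12 and the mouse build mm8, without roles. The counting tool, its annotation and its use of strand were not given in the sources used here. A search for the step that 1 read makes (gene models of 1 transcript and at least 2000 nt) placed 30.5% (WT) and 32.6% (MYOCD) of low values within 0.1 of a whole number, where 20% is due by chance, so whole reads were not recovered and depth is unknown.

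A symbol on several rows took the row with the highest mean. Positions came from GENCODE 29 (GRCh38), which held all 34 serpin identifiers, and promoters from RefSeq. Open reading frames were the longest from ATG over a gene's transcripts. Of the genes the symbol rule takes, 1 is not reported here, and it is in no count, sum or figure of the serpin genes. Named genes were every other counted serpin gene and, of each list, up to 6 genes beyond 2-fold and the 3 most abundant. Members, lists and alternatives were chosen with earlier results of these data known. The calculation was tested on simulated data with known changes larger than 2-fold and little noise. That test checks the arithmetic only and cannot show how reliable the calls are. Python 3.11.15 with pandas 2.3.3 was used.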

Additional observations from a re-analysis of the deposited data

How the results depend on the processing

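No paired analysis was possible because each group has 1 library, and no library could be left out. Of 190 values recomputed under other settings, 174 kept their side of 2-fold (log2 changes), stayed within 1.5 times (counts), or kept their sign and moved by at most 0.1 (medians). This share does not measure robustness, because many values could hardly change. Some scalings multiplied MYOCD by only 1.008, 0.998 or 1.003. The count of serpin genes higher by 2-fold, 1 as reported, was 0 with a pseudocount of 1 RPKM or at least 5 RPKM in a library, and 2 with no filter or with steady reference genes at 0, the added gene being SERPINA1. With no pseudocount, an unplanned setting chosen after seeing the data, it was 1. The planned settings too were chosen with earlier results of these data known. The count lower by 2-fold, 1 as reported, was 0 with a pseudocount of 1 RPKM and with at least 5 RPKM. The median log2 change of serpin genes was 0 with no filter, which adds the genes at 0. The log2 ratio of the summed serpin RPKM, 0.099 as reported, ranged from 0.095 to 0.19.

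Other protease inhibitors at or beyond 2-fold numbered 3 with at least 5 RPKM, and their median was 0 with no filter, as was that of the target proteases. With a pseudocount of 0.1 RPKM, 3 target proteases and 4 cofactor, receptor and clearance genes were at or beyond 2-fold. With steady reference genes at 0, which moves the median of all genes by 0.08, the latter list had 2 such genes and its median of -0.05 turned to 0.039. The unknown depth limits values under about 1 RPKM most.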
